A study of Mus musculus with 25 samples.

Results

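The 61 genes described here are the translation initiation and elongation factors on the array, together with the enzymes that modify or regulate them. They were chosen by name: every gene whose symbol in the array annotation begins with Eif or Eef followed by a digit and that has a probe set naming it alone, 61 of the 19938 genes with such a probe set among 35557 probe sets. Where a gene had several probe sets of its own, the brightest by its mean over the 25 arrays was used. Eef1g, Eif1, Eif2s1 and Eif4g1, which belong to the same machinery, were not analysed here.

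RNA came from primary cultures of neonatal mouse cardiac myocytes. WT cultures were from wild type mice, and TG cultures were from transgenic mice that overexpress the transcriptional repressor CHF1/Hey2 in the myocardium from the mlc2v promoter, which is active in ventricular muscle cells and not in the other cells of such a culture. Cultures were kept without serum or were given 20% fetal bovine serum for 24 hours, and the arrays numbered 5 for WT without serum, 6 for TG without serum, 7 for WT with serum and 7 for TG with serum. Each array was an independent culture. The question for these genes was whether their RNA levels differed between TG and WT cultures, and whether they stood differently in cultures given serum, a stimulus that makes cardiac myocytes enlarge.

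Protein synthesis starts when eIF2, carrying the initiator tRNA and GTP, joins the small ribosomal subunit together with eIF1A, eIF5 and the many-subunit eIF3, and when the eIF4F complex recruits this subunit to the capped end of an mRNA. The exchange factor eIF2B recharges eIF2 with GTP, and 4 kinases that sense stress phosphorylate eIF2 and so block eIF2B. The elongation factors eEF1A and eEF2 then deliver each aminoacyl-tRNA and move the ribosome along. In the heart, growth of the myocyte is carried by more protein synthesis, much of which is set by phosphorylation of these factors and of the 4E-BPs, which an RNA array does not measure.

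The hexamer CACGTG, an E-box of the kind bound by Myc and by related factors, was read in the window from 250 bases before to 50 bases after the gene start. The promoter sequences are from RefSeq on GRCm38.p6, and 48 of the 61 genes had an entry. Some genes had several windows (63 for the 48 genes, 32851 for all 27025), and a match in any of them counted. Eef2k, Eif4e and Eif5a were among those with several, which gives more room for a match, and the shares below are not adjusted for this. CACGTG, which reads the same on both strands, was present for 12 of the 48 genes (25%) against 8.09% of all 27025 genes with an entry. Of the genes that stood higher with serum in both genotypes, 4 of the 11 with an entry held it (36.4%), of those that stood lower in both 0 of 7 did, and of the rest 8 of 30 (26.7%). The stretches that follow show the match in the 4 genes that stood higher and, for contrast, in Eef2 and Eif3a, which passed the test in neither genotype. Each is 30 bases, 5′ to 3′ on the gene's strand, and capitals mark CACGTG.
Eef2k (kinase of eEF2), chr7:120842788-120842817, plus strand: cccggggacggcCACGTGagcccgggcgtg
Eif4e (cap-binding protein), chr3:138527028-138527057, plus strand: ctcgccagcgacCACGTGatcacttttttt
Eif4e, chr3:138527192-138527221, plus strand: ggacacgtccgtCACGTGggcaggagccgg
Eif4h (cofactor of the eIF4A helicase), chr5:134639488-134639517, minus strand: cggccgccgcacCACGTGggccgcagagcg
Eif5a (factor that relieves stalled ribosomes), chr11:69921443-69921472, minus strand: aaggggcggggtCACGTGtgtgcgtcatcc
Eif5a, chr11:69920791-69920820, minus strand: gcgctgcgcggcCACGTGaggtgggggagg
Eef2 (translocation factor), chr10:81176576-81176605, plus strand: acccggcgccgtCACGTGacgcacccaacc
Eif3a (largest subunit of eIF3), chr19:60790654-60790683, minus strand: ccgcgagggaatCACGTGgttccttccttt

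The match began 31 bases before the start in Eef2k, 43 before it in Eef2 and at position 23 after it in Eif3a, so genes with and without a shift in serum carried it close to the start. A Hairy-related site, CACGCG read on both strands (CGCGTG), was present for 14.6% of the 48 genes and 10.5% of all genes. It was held by the same 4 of the 11 genes that stood higher (36.4%), by 0 of the 7 that stood lower and by 3 of the other 30 (10%). The ETS-family motif TTTCCGG, read on both strands, was present for 14.6% and 4.03%, and for 0 of the 11 genes that stood higher with serum. A gene was scored as holding a motif if any of its windows did, whatever the overlap with another motif. A match describes the letters and is not a binding site.

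The arrays behind these values fell into 2 sets. The median log2 value of an array was 4.99 to 5.09 without serum and 5.21 to 5.36 with it. The SD over probe sets was 2.10 to 2.14 and 2.54 to 2.60. The labels do not say whether the 2 sets were processed separately, and serum and such a processing cannot be told apart on the deposited scale. Genotypes were therefore compared within a set, on log2 values, and serum was compared through each probe set's rank within its array. Hey2 itself read 6.23 ± 0.11 (log2, SD, n = 5) in WT and 7.81 ± 0.62 (n = 6) in TG cultures without serum, and 6.89 ± 0.25 and 8.71 ± 0.53 (n = 7 each) with serum. Its difference of 1.58 without serum did not pass the limma test (adjusted p = 0.853), whereas that of 1.81 with serum did (adjusted p = 0.00972), so the adjusted test without serum does not call the transgene itself. The Hey2 values without serum nevertheless did not overlap, at 6.12 to 6.37 in WT and 7.08 to 8.55 in TG. The paper, judging by p-value, reports Hey2 as the only gene that differed there. All 15 cardiac myocyte markers were measured and bright, with a mean log2 value of 10.73 to 11.69 in WT and 10.63 to 11.90 in TG cultures without serum, and 11.08 to 11.93 and 11.22 to 12.12 with serum. The 10 fibroblast markers averaged 8.67 to 9.80 over the 4 groups, so the RNA of other cells was likely present, but these values do not measure their share. By staining for sarcomeric myosin, the paper found nearly all cells of each preparation to be myocytes. In such bulk RNA, fewer cells of a type and less RNA per cell cannot be told apart.

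The transgene was accompanied by no called difference in any of the 61 genes. In the limma fit, 0 of 61 passed the adjusted threshold without serum, where 0% of all probe sets did, and 0 of 61 passed it with serum, where 0.00844% did. At an unadjusted p under 0.05, 2 genes were on the higher side in TG without serum (background 2.31%) and 1 on the lower side (background 3.33%). With serum there were again 2 on the higher side (background 4.39%) and 1 on the lower side (background 6.31%). The 3 genes of each comparison are 4.92% of the 61, close to the 5.64% of all probe sets without serum and below the 10.7% with serum. The groups overlapped for every gene in both sets. The median TG minus WT difference over the 61 genes was 0.0227 without serum and 0.00788 with serum on the log2 scale, with 43 and 35 of the 61 above 0 (70.5% and 57.4%, against 45.3% and 43.5% of all probe sets).

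Without serum, the smallest p belonged to Eif5b, the GTPase that joins the ribosomal subunits. Its log2 values were 8.08, 8.04, 8.05, 8.04 and 8.05 in the 5 WT cultures and 8.04, 8.18 and 8.21 as the lowest, median and highest of the 6 TG cultures. The WT cultures lay within 0.04 of each other while the TG cultures spread upward from the same floor, and the difference was 0.10 (95% interval 0.02 to 0.18, exact permutation p = 0.0217, limma adjusted p = 0.853). Eif1ax, the X-linked gene for the scanning factor eIF1A, read 8.69, 8.54, 8.86, 8.86 and 8.85 in WT and 8.82, 8.90 and 9 in TG, a difference of 0.15 (0.01 to 0.28, exact permutation p = 0.026, adjusted p = 0.867). Here 2 WT cultures lay below the rest, and the other 3 fell inside the TG range. Eef1a1, the main gene for the factor that brings aminoacyl-tRNA to the ribosome, read 13.70, 13.69, 13.74, 13.73 and 13.72 in WT against 13.51, 13.65 and 13.69 in TG, a difference of −0.09 (−0.18 to −0.01, exact permutation p = 0.00649, adjusted p = 0.856). The TG cultures reached only the lower edge of the narrow WT range.

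With serum, Eef2k, the kinase that phosphorylates and slows eEF2, read 7.33, 7.47 and 7.55 (lowest, median, highest of 7) in WT and 7.54, 7.57 and 7.68 in TG cultures. The ranges touched only at the top of WT, and the difference was 0.13 (0.03 to 0.23, exact permutation p = 0.00175, adjusted p = 0.358). Eif3h, a subunit of the eIF3 scaffold, read 11.15, 11.34 and 11.42 in WT and 11.38, 11.44 and 11.50 in TG, a difference of 0.12 (0.02 to 0.23, exact permutation p = 0.00291, adjusted p = 0.395). Eif5, which makes eIF2 hydrolyse its GTP at the start codon, was on the other side, at 10.20, 10.29 and 10.38 in WT and 10.05, 10.14 and 10.36 in TG (−0.14, −0.25 to −0.02, exact permutation p = 0.0175, adjusted p = 0.417). None of these 6 genes had an unadjusted limma p under 0.05 in both sets, and whether any difference itself depended on serum is taken up with the serum response.

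The 4E-BPs, which hold eIF4E away from eIF4G when unphosphorylated, differed from set to set without passing in either. Eif4ebp2 read 7.82, 7.69, 7.86, 7.74 and 7.72 in WT and 7.80, 7.89 and 8.48 in TG cultures without serum, a difference of 0.21 (−0.02 to 0.45, exact permutation p = 0.039, adjusted p = 0.878). The value of 8.48 was a single TG culture, replicate 4, without which the difference was 0.11 (adjusted p = 0.709). With serum Eif4ebp2 read 8.51, 8.55 and 8.92 in WT and 8.37, 8.55 and 8.66 in TG, with the same median in both, and the difference was −0.14 (−0.30 to 0.01, exact permutation p = 0.0699, adjusted p = 0.504). Eif4ebp1, the other 4E-BP measured alone, differed by 0.07 (−0.01 to 0.14, adjusted p = 0.878) and 0.05 (−0.05 to 0.14, adjusted p = 0.723). Among the remaining genes with the smallest p were Eif4g2, an eIF4G relative that lacks the eIF4E-binding part, with 0.08 without serum (adjusted p = 0.878), and Eif3m, with 0.10 with serum (adjusted p = 0.516).

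**Figure D1:**
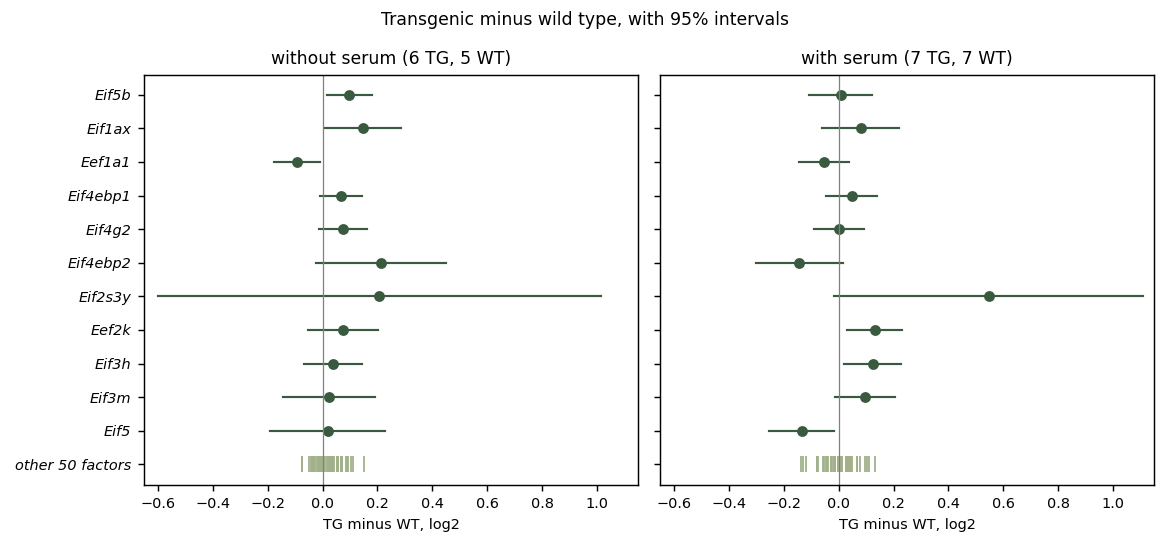
TG minus WT difference in log2 value for the 11 genes named by their p-value in either set (points with 95% intervals, without serum and with serum) and the differences of the other 50 genes. Differences of the genes with intervals clear of 0 lay between −0.14 and 0.15, and none passed after adjustment.

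For the eIF2 kinases, Eef2, Eif4e and Eif5a no difference was detectable at this number of arrays. Eef2 differed by −0.04 (−0.12 to 0.05) without and −0.02 (−0.11 to 0.08) with serum, Eif4e by 0.07 (−0.09 to 0.24) and 0.05 (−0.08 to 0.17), and Eif5a by 0.02 (−0.15 to 0.19) and 0.01 (−0.09 to 0.12). Those intervals leave room for differences of about the size measured for Eif5b or Eef2k. Of the 4 kinases, Eif2ak1 (HRI), Eif2ak2 (PKR) and Eif2ak3 (PERK) differed by less than 0.04 in each set, and Eif2ak4 (GCN2) by −0.05 and −0.13 (adjusted p = 0.596 with serum). All 5 subunits of eIF2B were above 0 without serum (0.00 to 0.07) and 2 of 5 with serum, and none passed.

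For serum, each probe set's rank within its array was turned into a normal score, a number that is 0 at the middle of the array and counts in SDs of a normal distribution. In WT cultures 15 of the 61 genes stood higher with serum (24.6%, background 28.3%) and 13 stood lower (21.3%, background 28.3%). In TG cultures 15 stood higher (24.6%, background 30.2%) and 14 stood lower (23.0%, background 30.5%). The shares were thus below those of all probe sets in each direction, and the median size of the difference, 0.0562 in WT and 0.0537 in TG, was less than the 0.131 over all probe sets and the 0.107 over all genes. In both genotypes, 13 genes stood higher (86.7% of each list) and 12 lower (92.3% of the WT and 85.7% of the TG list), and 0 went opposite ways. These shares were close to those of all probe sets, where 86.2% of the WT and 80.7% of the TG calls on the higher side, and 87.9% and 81.8% on the lower side, were shared. Called in WT alone were Eif4b, Eif4ebp2 and Eif5b, and in TG alone Eif2s2, Eif4a1, Eif4a3 and Eif4enif1. Serum and the separate processing of the sets cannot be told apart for any one of them. The probe sets used for Eif2s2, Eif4a1 and Eif4enif1 lie among those of another chromosome. On their own chromosomes, a probe set of Eif2s2 (adjusted p = 0.391 in WT and 0.162 in TG) and of Eif4a1 (0.135 and 0.103) passed in neither genotype. A further probe set of Eif4a1 (adjusted p = 0.00454 and 0.000987) and of Eif4enif1 (5.83e-08 and 7.17e-09) passed in both. The difference of the response between TG and WT was called for 0 of 61 genes and for 0% of all probe sets.

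**Figure D2:**
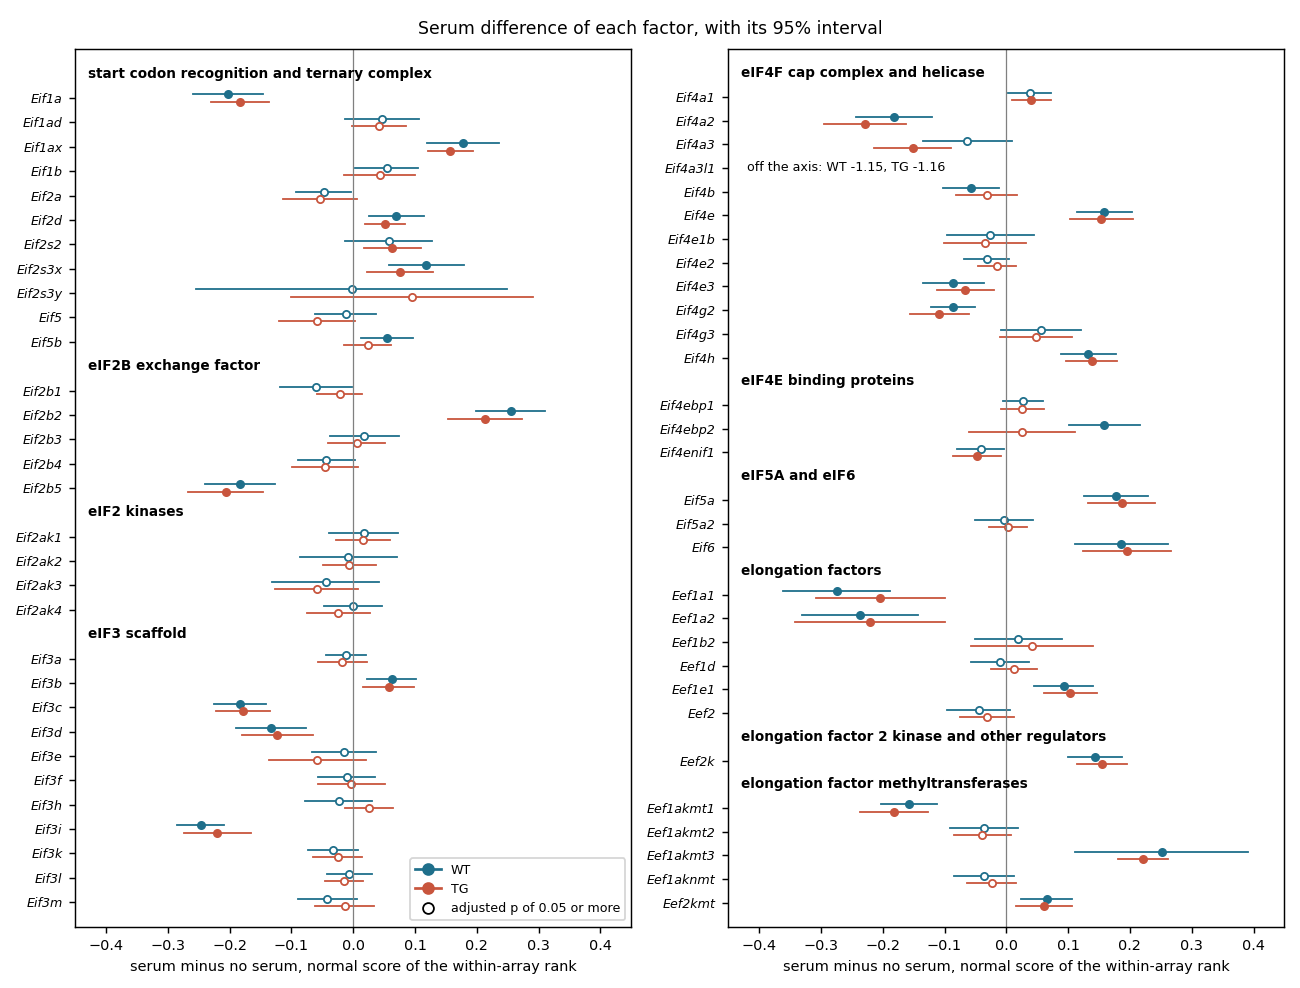
Serum minus no serum difference in rank score for each of the 61 genes, in WT and in TG cultures, with 95% intervals, ordered by the role of the protein (horizontal axis in normal score units). Filled points passed the adjusted test and open points did not. Eif4a3l1 lies off the axis at −1.15 in WT and −1.16 in TG, and the other genes lie between −0.27 and 0.26, with WT and TG points close together.

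Of the 11 factors that act at the start codon, 4 stood higher and 1 lower in each genotype (36.4% and 9.09%). The shares of all probe sets were 28.3% and 28.3% in WT and 30.2% and 30.5% in TG. Among the called genes were Eif1ax, Eif2d and Eif2s3x, higher in both, and Eif1a, lower in both. Eif1ax lay above 89.7, 88.9, 90.8, 90.8 and 90.6% of probe sets in the WT cultures without serum and above 92.0, 93.0 and 93.7% (lowest, median, highest) with serum. In TG cultures it moved from 90.6, 90.9 and 91.4% to 92.6, 93.4 and 93.5%. No culture without serum reached the serum range in either genotype, and the score differences were 0.178 (SE 0.027, adjusted p = 0.000147) and 0.157 (SE 0.017, adjusted p = 4.74e-06). Eif2s3x, the X-linked gamma subunit of eIF2 that binds the initiator tRNA, differed by 0.118 (adjusted p = 0.00331) and 0.0762 (adjusted p = 0.0169, lost on percentile ranks at 0.123), and Eif2d, which can place the initiator tRNA without eIF2, by 0.0695 and 0.0507. Eif1a, the other gene for eIF1A in the mouse, went the opposite way at −0.203 (adjusted p = 4.08e-05) and −0.183 (adjusted p = 9.97e-06). Probe sets that name Eif1a together with 7 other symbols gave +0.384 to +0.603, so the sign for that gene depends on the probe set. Eif5b passed in WT alone (0.0542, adjusted p = 0.0293, against 0.0232 in TG) and Eif2s2 in TG alone (0.0632, adjusted p = 0.0212, against 0.0571 in WT), with sizes in the other genotype that were not tested to differ beyond the interaction, where neither passed.

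eIF2B, the exchange factor that sets how much active eIF2 a cell has, was divided. Eif2b2, its beta subunit, lay above 82.2, 84.3, 83.1, 81.1 and 82.8% of probe sets in WT without serum and above 87.1, 88.6 and 89.5% with serum, and above 81.9, 82.5 and 86.0% in TG without and 86.9, 87.9 and 89.1% with serum. The groups did not overlap, and at 0.255 (SE 0.026, adjusted p = 7.18e-06) in WT it had the largest upward difference of the 61 genes in that genotype. Eif2b5, the catalytic epsilon subunit, went down from 90.5, 92.5, 91.6, 92.1 and 90.5% to 87.4, 88.3 and 88.7% in WT. In TG it went from 89.8, 91.5 and 92.9% to 87.1, 88.0 and 88.2%. The differences were −0.184 (SE 0.026, adjusted p = 9.35e-05) and −0.206 (SE 0.028, adjusted p = 3.44e-05), again with no overlap. Eif2b1, Eif2b3 and Eif2b4 passed in neither genotype, nor did any of the 4 kinases that act on eIF2, whose differences lay between −0.0593 and 0.0168.

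Of the 11 eIF3 subunits, 1 stood higher and 3 stood lower in each genotype, the same 4 in both. That is 36.4% called, less than the 56.6% of all probe sets in WT and 60.7% in TG. The 27.3% on the lower side was near the 28.3% and 30.5% of all probe sets. Eif3i, a subunit at the periphery of the complex, lay above 93.1, 93.9, 93.1, 93.1 and 93.0% of probe sets in WT without serum and above 88.9, 89.4 and 89.7% with serum. In TG the values were 92.0, 92.9 and 94.1% against 88.7, 89.6 and 90.5%. Each culture given serum was below each culture without it, at −0.247 (SE 0.018, adjusted p = 5.89e-07) and −0.220 (SE 0.025, adjusted p = 7.70e-06). Eif3c, a core subunit, differed by −0.183 and −0.178, and Eif3d, which can itself bind the cap, by −0.133 and −0.123, although its deposited log2 value differed by 0.14 and 0.15 the other way. Eif3b, another core subunit, was the one that stood higher, by 0.0622 (adjusted p = 0.0117) and 0.0577 (adjusted p = 0.0187). Eif3a, the scaffold on which the others assemble, did not pass (−0.0120 and −0.0175). Eif3m also did not pass (−0.0422 and −0.0139) on a probe set that lies among those of another chromosome, whereas the probe set on its own chromosome gave −0.163 and −0.109, both called.

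Of the 12 genes of the cap complex and its helicases, 2 stood higher and 5 lower in WT (16.7% and 41.7%) and 3 and 5 in TG (25% and 41.7%). The shares of all probe sets were 28.3% and 28.3% in WT and 30.2% and 30.5% in TG. Eif4e and Eif4h stood higher in both, and Eif4a2, Eif4a3l1, Eif4e3 and Eif4g2 lower in both. Eif4b, a cofactor of the helicase, stood lower in WT (−0.0566, adjusted p = 0.0341) and did not pass in TG (−0.0319), and the scaffold gene Eif4g3 passed in neither (0.0562 and 0.0479). Eif4e lay above 90.0, 90.8, 91.1, 90.3 and 91.3% of probe sets in WT without serum and above 92.4, 93.2 and 93.4% with serum, and in TG above 89.4, 91.3 and 91.6% without and 92.7, 93.3 and 94.0% with serum. The groups did not overlap, and the differences were 0.159 (SE 0.020, adjusted p = 4.45e-05) and 0.154 (SE 0.023, adjusted p = 9.51e-05). That probe set lies among probe sets of another chromosome than the gene. Of 2 dimmer probe sets of Eif4e on its own chromosome, 1 gave 0.145 and 0.129 and the other 0.0262 and 0.0317. Eif4h differed by 0.132 (adjusted p = 0.000187) and 0.138 (adjusted p = 4.69e-05).

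Eif4a2, a paralog of the main helicase Eif4a1, lay above 96.1, 96.8, 96.5, 96.4 and 95.4% of probe sets in WT without serum and above 93.8, 94.5 and 94.8% with it. The TG cultures were at 95.5, 96.6 and 96.9% and then at 93.9, 94.2 and 94.6%. It stood lower with no overlap, at −0.182 (SE 0.028, adjusted p = 0.000192) and −0.229 (SE 0.031, adjusted p = 3.16e-05). Eif4a1 differed by 0.0377 (adjusted p = 0.0585) and 0.0404 (adjusted p = 0.0301), past the threshold in TG alone, and that TG call was lost when any of 6 single cultures was left out (without serum 1, 2 or 4, with serum 1, 5 or 7), at adjusted p = 0.0527 to 0.0662. Eif4g2 stood lower by −0.0858 and −0.108, and Eif4e3, an eIF4E relative, by −0.0856 and −0.0661. On percentile ranks, which weigh the ends of the array less than normal scores do, the Eif4g2 call was lost in both genotypes (adjusted p = 0.346 and 0.199).

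The far end of the family was Eif4a3l1, a gene annotated as Eif4a3 like 1. It read 6.08 to 6.24 on the log2 scale in both genotypes without serum and 2.94 to 3.58 with serum, that is above 63.2 to 65.2% and then above 16.9 to 24.8% of probe sets, a score difference of −1.15 (SE 0.026, adjusted p = 4.94e-10) in WT and −1.16 (SE 0.038, adjusted p = 4.08e-10) in TG. By the probe sets used, it is the only one of the 61 genes whose difference passed 0.3 in size. A dimmer probe set of Eif4enif1, not the one used, gave −0.496 in WT and −0.490 in TG (adjusted p = 5.83e-08 and 7.17e-09). The 2 probe sets that name Eif4a3l1 together with Eif4a3, whose product is the helicase of the exon junction complex, gave −0.0554 and 0.0582 in WT and −0.0566 and 0.0618 in TG. Eif4a3 by its own probe set stood lower in TG (−0.151, adjusted p = 0.000571) and did not pass in WT (−0.0629, adjusted p = 0.122).

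Eif5a and Eif6 stood higher with serum in both genotypes. eIF5A carries hypusine, an amino acid found in no other protein, and eIF6 keeps the large ribosomal subunit apart until it is mature. Eif5a lay above 98.2, 97.9, 98.2, 98.1 and 98.5% of probe sets in WT without serum and above 98.8, 98.8 and 99.0% with it, with TG at 97.6, 98.2 and 98.5% and then 98.8, 98.9 and 98.9%, and the differences were 0.178 (SE 0.024, adjusted p = 5.86e-05) and 0.187 (SE 0.025, adjusted p = 3.17e-05). Each serum culture was above each culture without serum. The probe set used lies among those of another chromosome, and the one on the gene's own chromosome gave 0.233 and 0.187. On percentile ranks the WT call was lost (adjusted p = 0.0623). Eif6 went from 95.4, 95.5, 94.9, 94.5 and 95.7% to 96.1, 96.7 and 97.4% in WT and from 93.2, 95 and 95.9% to 96.2, 96.5 and 96.8% in TG, differences of 0.186 (SE 0.035, adjusted p = 0.000695) and 0.195 (SE 0.033, adjusted p = 0.000202). Eif5a2, the less used paralog of Eif5a, did not pass (−0.00427 and 0.00271).

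Among the elongation factors, both genes for eEF1A stood lower and the others did not. Eef1a1 was the brightest of the 61 genes, at position 6, 7, 7, 9 and 7 from the top of the 35557 probe sets in the WT cultures without serum. With serum it stood at position 11, 21 and 26 (best, median, worst), and in TG cultures at 7, 10 and 12 and then at 11, 23 and 28. The score differences were −0.274 (SE 0.040, adjusted p = 0.000112) and −0.204 (SE 0.048, adjusted p = 0.00257), with groups that did not overlap in WT and overlapped in TG. On the deposited log2 scale the same gene differed by 0.01 and 0.05, so the difference is one of places among the brightest probe sets and not of the deposited value. On percentile ranks its call was lost in both genotypes (adjusted p = 0.927 and 0.922), and with ranks among single-gene probe sets alone it was lost in TG (adjusted p = 0.108). Eef1a2, the isoform of heart, skeletal muscle and neurons, stood at position 194, 285, 204, 187 and 250 in WT without serum and at 324, 408 and 586 with serum. Its TG positions were 156, 171 and 365 and then 301, 319 and 603, and the differences were −0.237 (SE 0.043, adjusted p = 0.000606) and −0.220 (SE 0.056, adjusted p = 0.00417). The groups did not overlap in WT and overlapped in TG, and on percentile ranks this call was lost too (adjusted p = 0.119 and 0.172).

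Eef2 did not pass (−0.0446, adjusted p = 0.122, and −0.0312, adjusted p = 0.205), nor did the exchange factors Eef1b2 (0.0194 and 0.0414) and Eef1d (−0.0100 and 0.0126), which reload eEF1A. Eef1e1, a scaffold protein of the multi-synthetase complex, stood higher by 0.0926 (adjusted p = 0.00377) and 0.104 (adjusted p = 0.000511). Eef2k lay above 69.8, 68.6, 68.1, 70.0 and 69.9% of probe sets in WT without serum and above 72.1, 74.2 and 75.0% with it. The TG cultures were at 68.9, 70.0 and 72.7% and then at 74.7, 75.1 and 76.1%. No serum culture overlapped with those lacking serum, and the differences were 0.143 (SE 0.020, adjusted p = 8.30e-05) and 0.155 (SE 0.019, adjusted p = 1.30e-05). A dimmer probe set of Eef2k, with a mean of 4.97, went the other way at −0.270 and −0.175, so the direction for this kinase rests on which of its probe sets is read.

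The methyltransferases that modify eEF1A and eEF2 were divided as well. Eef1akmt3 stood higher by 0.252 (SE 0.064, adjusted p = 0.00539) and 0.221 (SE 0.018, adjusted p = 5.26e-07). It was the dimmest of the 61 genes, with a mean log2 value of 4.36, and its WT cultures without serum ranged from 21.9 to 33.3%, below the 33.9 to 43.3% with serum. Eef2kmt, which methylates eEF2, stood higher by 0.0655 and 0.0611, and Eef1akmt1 stood lower by −0.157 (adjusted p = 6.09e-05) and −0.181 (adjusted p = 4.43e-05).

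**Figure D3:**
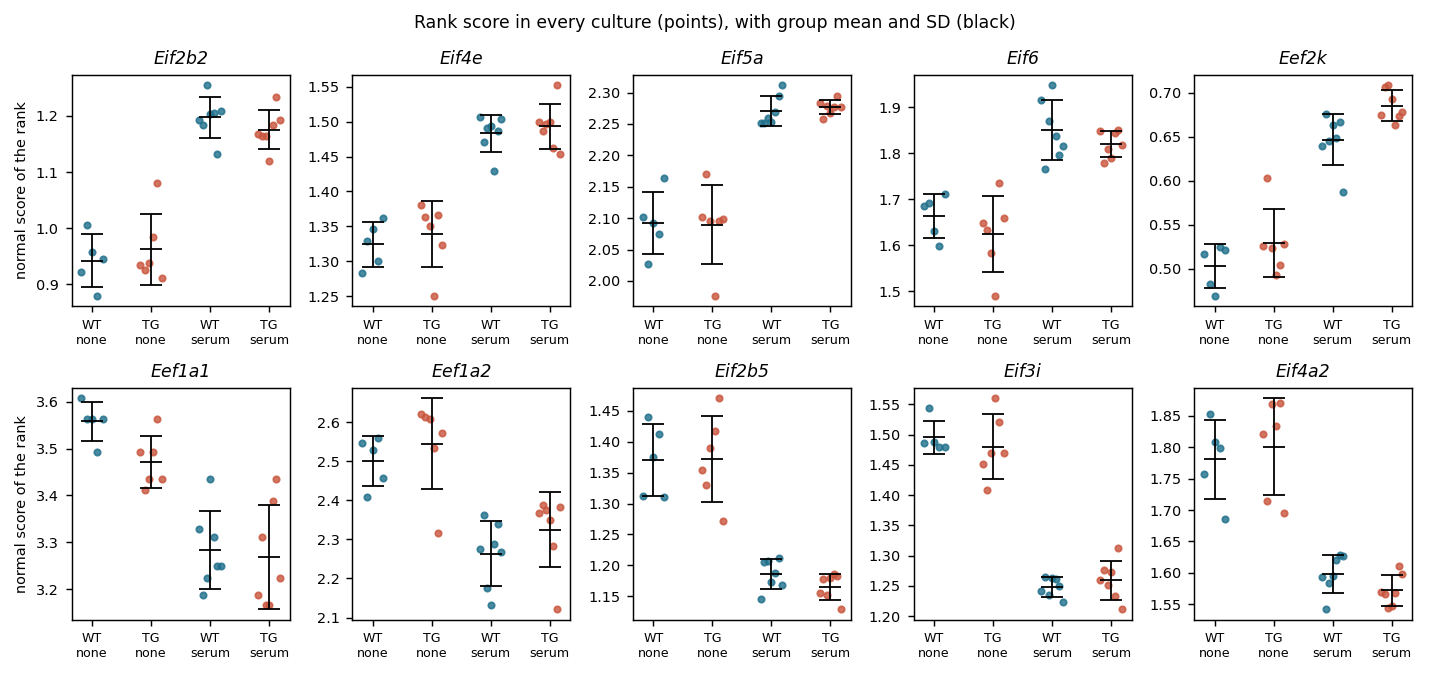
Rank score of 10 genes in each culture (vertical axis, normal score within the array), by group, with each group's mean ± SD (n = 5, 6, 7 and 7). Eif2b2, Eif4e, Eif5a, Eif6 and Eef2k sit higher with serum in both genotypes and Eef1a1, Eef1a2, Eif2b5, Eif3i and Eif4a2 sit lower.

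By a count of groups that do not overlap, the shares were near those of all probe sets. In WT 11 genes lay wholly above and 11 wholly below (18% each, background 17.1% and 18.8%), and in TG 9 and 10 (14.8% and 16.4%, background 16.7% and 18.5%). For such a gene the exact two-sided permutation p is the smallest the design allows, 0.00126 for 5 against 7 cultures (792 divisions) and 0.000583 for 6 against 7 (1716 divisions). Other marker lists were divided by rank too. Of 10 endothelial markers, 6 stood higher and 3 lower with serum in WT (60% and 30%), and 2 and 2 in TG (20% each). Of 10 epicardial markers, 3 and 2 did so in WT (30% and 20%), and 4 and 2 in TG (40% and 20%). For 10 fibroblast markers the counts were 1 and 3 (10% and 30%), and 1 and 6 (10% and 60%). For 10 macrophage markers they were 3 and 1 (30% and 10%), and 5 and 0 (50% and 0%). For the 9 of 10 proliferation markers measured they were 0 and 2 (0% and 22.2%), and 0 and 1 (0% and 11.1%). The shares of all probe sets were 28.3% and 28.3% in WT and 30.2% and 30.5% in TG. The part of these cells in the serum differences was not tested.

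The choice of scale decides the direction for much of the family. On the deposited log2 values 54 of 61 genes were higher with serum in WT and 53 of 61 in TG (88.5% and 86.9%, against 56.3% and 55.5% of all probe sets), with median differences of 0.414 and 0.425 against 0.121 and 0.111. On the rank score 24 and 28 of 61 lay above 0 (39.3% and 45.9%). With log2 values the limma fit called 47 genes higher and 2 lower in WT and 49 and 1 in TG, and after subtraction of the array median 31 and 9 in WT and 36 and 9 in TG. The genes are mostly bright, and the arrays with serum have the wider spread of values. Statements on direction here therefore rest on rank, which does not set serum apart from a separate processing of the 2 sets. The 2 scales had opposite signs for 30 of the 61 genes in WT and 25 in TG, each time lower by rank and above 0 on the deposited values. Among them were 6 of the genes called lower in WT (Eef1a1, Eef1akmt1, Eif3d, Eif4b, Eif4e3 and Eif4g2) and 6 in TG (Eef1a1, Eif3d, Eif4a3, Eif4e3, Eif4enif1 and Eif4g2).

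**Figure D4:**
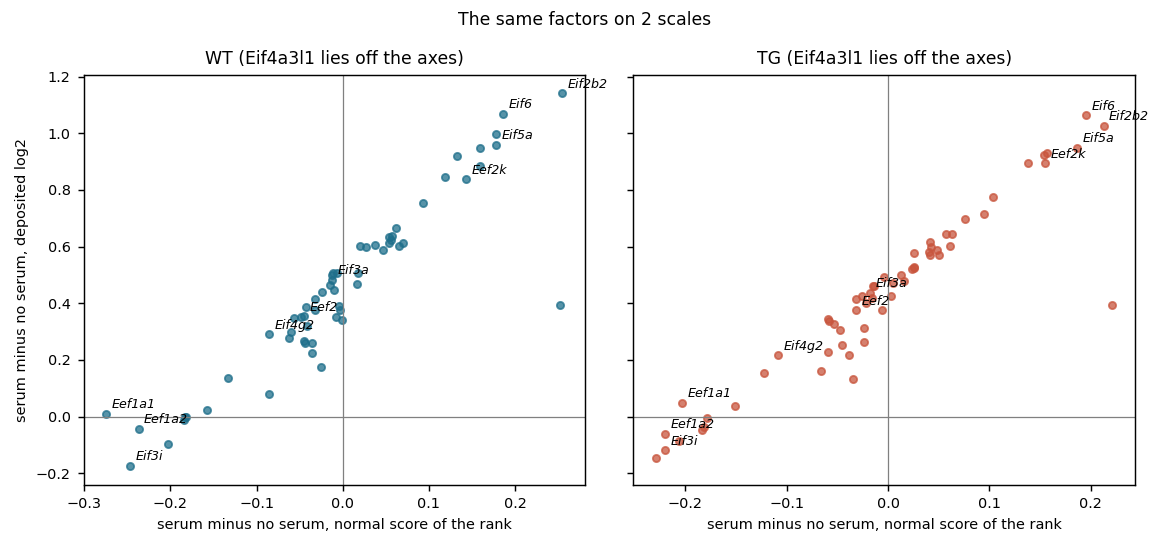
Serum minus no serum difference of each of the 61 genes on the deposited log2 scale (vertical axis) against the difference in rank score (horizontal axis), in WT and in TG cultures, with Eif4a3l1 off the axes. Most genes lie above 0 on the log2 scale, 54 of 61 in WT and 53 of 61 in TG, while on the rank score 24 and 28 do.

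The interaction of genotype and serum was below an unadjusted p of 0.05 for 1 gene, which was on the lower side (background 2.41%), and for none on the higher side (background 2.22%). It was Eif4ebp2, with −0.133 (SE 0.049, adjusted p = 0.960): the score differed by 0.159 with serum in WT (adjusted p = 0.000293) and by 0.0257 in TG (adjusted p = 0.595). In WT it lay above 81.4 to 82.8% of probe sets without and 84.8 to 87.8% with serum, with no overlap, and in TG above 81.8 to 88.2% and 83.3 to 85.6%. The TG range without serum was stretched by replicate 4. Without that culture the TG difference was 0.0659 (adjusted p = 0.0226) and the interaction −0.093 (adjusted p = 0.946). The next smallest p was that of Eif4a3 (−0.0886), followed by Eif3h (0.0488), at adjusted p = 1 each.

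Genes that work beside these factors are given from lists of the pathway. For comparison, 28.3% of all probe sets were called higher and 28.3% lower with serum in WT, and 30.2% and 30.5% in TG. Of 17 tRNA synthetases measured, 11 stood higher and 4 lower with serum in WT (64.7% and 23.5%) and 11 and 3 in TG (64.7% and 17.6%). Rars (arginine) was at 0.263 and 0.232 and Eprs (glutamate and proline) at −0.167 and −0.176. Of 19 ribosome biogenesis genes, 11 stood higher and 0 lower in WT (57.9% and 0%) and 12 and 1 in TG (63.2% and 5.26%). Among those higher were Npm1 (0.262 and 0.236), a chaperone of ribosome assembly, Nop56 (0.219 and 0.216) and Polr1b (0.174 and 0.217), a subunit of RNA polymerase I. Myc, which drives many of these genes, differed by 0.225 in WT (adjusted p = 0.0644) and 0.193 in TG (adjusted p = 0.015). Ribosomal protein genes were mixed, with 12 higher and 20 lower of 52 in WT (23.1% and 38.5%) and 12 and 17 in TG (23.1% and 32.7%). Rps15a was low at −0.712 and −0.721.

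Of 18 termination, recycling and partner factors, 5 stood higher and 3 lower in WT (27.8% and 16.7%) and 7 and 5 in TG (38.9% and 27.8%). The shares of all probe sets were 28.3% and 28.3% in WT and 30.2% and 30.5% in TG. Denr, a recycling factor, was at 0.255 and 0.292, and Dohh and Dhps, the enzymes that make hypusine on eIF5A, were at 0.233 and 0.185 and at −0.082 and −0.123. Of 15 genes of mTOR and MNK control, 3 stood higher and 4 lower in WT (20% and 26.7%) and 3 and 5 in TG (20% and 33.3%), near or below those shares. Pdcd4, which inhibits the eIF4A helicase, was lower (−0.329 and −0.350), and Rptor, the mTORC1 scaffold, and Mknk1, a kinase of eIF4E, were higher (0.145 and 0.128, and 0.109 and 0.139). With serum, 2 of these 15 were on the lower side in TG against WT at an unadjusted p under 0.05 (6.31% of all probe sets were), both stress-induced inhibitors of mTORC1: Ddit4 at −0.38 and Sesn2 at −0.42. Rheb, the GTPase that activates mTORC1, was on the higher side at 0.18, and 0 of the 15 passed the adjusted test. The 9 mitochondrial translation factors were all above 0 in TG against WT with serum (43.5% of all probe sets were), with a median of 0.124, and 0 were called. In the same comparison 14 of 15 cardiac myocyte markers were above 0, with a median of 0.293, and 10 of 10 endothelial markers below 0, with a median of −0.273, and the part of that shift in these values was not tested.

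The levels also varied from culture to culture with the myocyte markers. Within each set, each gene's deviation from its genotype mean was set against that of the mean of the 15 cardiac myocyte markers, a family of 124 relations that includes sex-linked pairs, with p-values from 100000 resamples adjusted by Benjamini-Hochberg. Eef1a2 followed the markers, with r = 0.936 and rho = 0.900 over the 11 cultures without serum and r = 0.925 and rho = 0.754 over the 14 with serum (adjusted permutation p = 0.00145 for r in each set, and 0.0103 and 0.0226 for rho). Without the 2 cultures farthest from the median on the marker axis r was 0.804 and 0.859, and within the 8 and the 11 cultures highest in the markers it was 0.816 and 0.614. Eef1b2 ran against the markers, with r = −0.847 and rho = −0.852 without serum (adjusted permutation p = 0.0205 for r and 0.0148 for rho) and r = −0.868 and rho = −0.824 with serum (0.00145 and 0.0103), and r = −0.958 and −0.727 without those 2 cultures. Its WT values without serum were 9.87, 10.28, 9.91, 9.90 and 9.90, with the high value in the culture that had the lowest myocyte markers of its group, replicate 2.

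By r, 15 negative and 2 positive relations passed the adjusted threshold without serum and 13 and 1 with serum, but by rho only 7 negative and 1 positive passed without serum and 11 and 1 with serum. The positive gene by both measures was Eef1a2, whereas Eif4g3 without serum (r = 0.777) did not pass by rho. Negative by r and by rho in both sets were 3 genes, Eef1b2, Eif2b2 and Eif4b. Leaving out the 2 farthest cultures shrank r by over 1.5 times for 9 of the 15 negative relations without serum and 3 of the 13 with serum. The share of all genes that passes the same adjusted test is not given here. Set beside all genes as a description, r was −0.7 or below for 24.6% of the 61 without and 18% with serum against 11.2% and 10.9% of genes, and the median r was −0.376 and −0.399 against −0.0685 and 0.0333. It was above 0.7 for 4.92% and 1.64% of the 61 against 9.41% and 9.54% of genes. Among all genes, Eef1a2 was at position 467 from the top without serum and 474 with it, so many genes followed the markers more closely. The 61 genes share the same cultures and are not independent of each other. Eif4b, a cofactor of the eIF4A helicase, kept r = −0.830 and −0.779 without the 2 farthest cultures, whereas Eif3c without serum went from −0.816 to 0.0219 without TG replicate 5 and WT replicate 2, so that relation rests on those cultures.

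**Figure D5:**
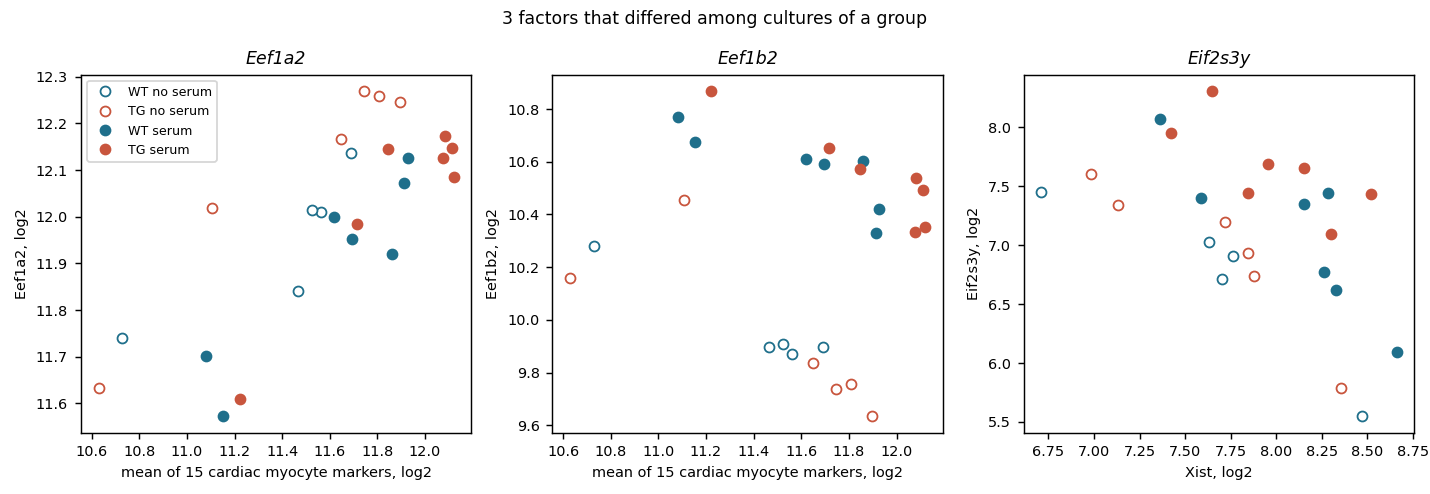
Log2 value of Eef1a2 and of Eef1b2 in each culture against the mean log2 value of the 15 cardiac myocyte markers, and of Eif2s3y against Xist, by group. Eef1a2 rises with the markers (r = 0.936 and 0.925 within the sets), Eef1b2 runs against them (−0.847 and −0.868), and Eif2s3y runs against Xist (−0.914 and −0.804).

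Eif2s3y, the Y-linked gamma subunit of eIF2, had the widest spread of the 61 genes, with an SD within groups of 0.60, followed by Eef1b2 (0.21) and Eef1a2 (0.20). It read 5.55, 6.71, 7.45, 7.03 and 6.91 in WT and 5.79, 7.07 and 7.61 in TG cultures without serum, and 6.09, 7.35 and 8.07 and then 7.09, 7.65 and 8.31 with serum. The TG minus WT difference of 0.21 and 0.55 (−0.02 to 1.11, exact permutation p = 0.088, adjusted p = 0.484) with serum did not pass. Its deviations ran against those of Xist, which only female cells express, with r = −0.914 and rho = −0.945 without serum (adjusted permutation p = 0.00145 and 0.00124) and r = −0.804 and rho = −0.780 with serum (adjusted permutation p = 0.00601 and 0.0148), and r = −0.889 and −0.724 without the 2 cultures farthest from the median of Xist. The cultures thus differed in their balance of Y-linked and Xist RNA, and the part of that balance in the differences of the X-linked Eif1ax and Eif2s3x was not tested.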

How the data were processed

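Per the labels and the study's methods, the authors hybridised RNA of each culture to an Affymetrix mouse Gene ST array and summarised it by RMA in Affymetrix Expression Console 1.1. The deposited table holds 1 log2 value per probe set and array, and 0 columns of values were left out. Genes were named through the platform annotation: 21789 probe sets name 1 gene, 1621 several, and 12147 were unnamed here. Each set was fitted for genotype on its own with limma 3.58.1 in R 4.3.3 (statmod 1.5.0), and serum was fitted on normal scores of the within-array rank, with Benjamini-Hochberg adjustment over all 35557 probe sets and a threshold of 0.05. The limma fits were checked on simulated data. Exact permutation tests were two-sided. Members, lists and the genes named were chosen with earlier results of these data known: fixed core factors, the smallest p-values per genotype comparison and for the interaction, the largest called serum differences, and the brightest, dimmest and most variable genes. Arrays carry no counts, so their number limits the precision. Alternatives were another scale or centring, array weights, dim probe sets or cultures left out, a replicate block, and other probe sets.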

Additional observations from a re-analysis of the deposited data

Results flagged for a closer look

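Within groups of 5 to 7 cultures, 15 of 144 combinations of a named gene and a group (10.4%) had a culture whose gap to the nearest other passed Dixon's 95% limit. These combinations involve 11 of the 25 arrays. The limit has a nominal rate of about 1 in 20, and the share over all probe sets was not computed. The named genes share the same cultures and include the most variable ones, so the count cannot be read as a trait of these genes. Values are on the log2 scale.

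In WT cultures without serum, Eef1b2 read 10.28 (the others 9.87 to 9.91) and Eif3i 9.42 (9.27 to 9.29) in replicate 2, the culture of its group with the lowest myocyte markers. Eif5b was highest in replicate 1 at 8.08, Eif4a3l1 was lowest there at 6.08, and Eif4g2 was highest in replicate 5 at 11.38.

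In TG cultures without serum, Eif4ebp2 at 8.48 (7.80 to 7.97) and Eif5a at 10.73 stood apart in replicate 4, and Eif1a at 8.27 and Eif3c at 10.50 in replicate 5. These are the 2 cultures of the group with the lowest myocyte markers. Eef2k was highest in replicate 2 at 6.90 and Eef1akmt3 was lowest in replicate 1 at 4.08.

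With serum, Eif2ak4 was highest in WT replicate 3 at 6.70 (6.32 to 6.47) and Eef1a2 lowest in TG replicate 6 at 11.61 (11.99 to 12.17), the cultures lowest in myocyte markers in their groups. Eef2k was lowest in WT replicate 7 at 7.33, and Eif2ak2 was lowest in TG replicate 7 at 6.58. The part of the cell mixture in these values was not tested.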

How the results depend on the processing

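No gene passed the adjusted test for TG against WT, or for the interaction, under any alternative run. The count at an unadjusted p under 0.05 without serum (3) became 1 with a variance trend, 0 after quantile normalization, 7 with centred medians and 1 on rank scores, and 2 to 6 with 1 culture left out (6 without TG replicate 4). With serum (3) it was 5 with array weights and 2 to 5 with 1 culture left out (5 without TG replicate 6). The interaction count (1) was 1 to 2.

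The serum count of 28 in WT (15 higher, 13 lower) became 49 (47 and 2) on deposited log2 values, 31 higher with centred medians and 13 (4 higher) for differences over 0.1 score units. In TG, 29 (15 and 14) became 50 (49 and 1), 45 (36 and 9) and 13 (6 and 7). Leaving out 1 culture gave 27 to 29 in WT (14 to 16 and 12 to 14) and 27 to 33 in TG (14 to 16 and 13 to 18). Eif5b lost its WT call without serum-free replicate 3, 4 or 5 or serum replicate 4 or 5 (adjusted p = 0.0516 to 0.0588). Leaving out the cultures lowest in myocyte markers, an alternative chosen after seeing the data, gave 26 in WT and 31 in TG.

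On percentile ranks Eef1a1, Eef1a2 and Eif4g2 lost their calls in both genotypes, Eif5a in WT and Eif2s3x and Eif4a1 in TG. Ranks among single-gene probe sets lost Eef1a1, Eif2s3x and Eif4a1 in TG.

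On the deposited log2 scale 30 genes turned in WT and 25 in TG. Those among the 36 genes named by rule were in WT Eef1a1 (0.010), Eef1akmt1 (0.023), Eef1d (0.45), Eef2 (0.36), Eif2ak2 (0.35), Eif2ak4 (0.34), Eif3a (0.48), Eif3h (0.44), Eif3m (0.39), Eif4a3 (0.28), Eif4g2 (0.29) and Eif5 (0.50), and in TG Eef1a1 (0.049), Eef2 (0.37), Eif2ak2 (0.38), Eif2ak3 (0.23), Eif2ak4 (0.26), Eif3a (0.44), Eif3m (0.46), Eif4a3 (0.038), Eif4g2 (0.22) and Eif5 (0.34). With centred medians the named genes that turned were Eef1d (0.20), Eif3a (0.24), Eif3h (0.19), Eif4g2 (0.042) and Eif5 (0.25) in WT and Eef2 (0.14), Eif3a (0.21) and Eif3m (0.23) in TG. With another probe set Eef2k became −0.270 and −0.175 and Eif4e1b 0.174 and 0.214.

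Same-numbered cultures did not deviate together (correlations −0.449 to 0.194), and pairs with different numbers ranged from −0.406 to 0.563. In a heat map of the paper, the serum-free arrays carry partly different replicate numbers. For these arrays, a match by number therefore cannot show which cultures shared a preparation, and such sharing was not tested in another way. With the replicate number as a block, TG against WT kept 0 adjusted and 3 unadjusted calls in each set, the interaction 0 and 1, and serum gave 23 (12 and 11) in WT and 22 (10 and 12) in TG.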
